A study of Caenorhabditis elegans with 2 samples.

Results

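The 9 genes described here, lsy-6, che-1, ceh-36, cog-1, die-1, fozi-1, lim-6, lsy-2 and nsy-7, set up left and right differences between paired sensory neurons of the nematode Caenorhabditis elegans. They were taken by name from the Ensembl annotation of the WBcel235 assembly, where lsy-6 is listed as cel-lsy-6. They are 8 of 19973 nuclear protein-coding genes and 1 of 261 microRNA genes. Chromatin immunoprecipitation followed by sequencing had been used on whole early embryos (0 hours, obtained by egg bleaching) of strain RW12282, in which a CRISPR insertion (st12282) put a TY1::EGFP::3xFLAG tag on tbx-37. TBX-37 is a T-box transcription factor, and the chromatin was precipitated with an antibody against the green fluorescent protein part of the tag. There was 1 group of 2 biological replicates, so the data hold no contrast between conditions, and the control experiment that the labels mention was not analysed here. Both replicates carry the tag, and early embryos are a mixture of lineages, of which ASE precursors are a small part. Binding in a few cells and weak binding in many cells cannot be told apart in such material.

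The ASE neurons are a left and right pair of salt-sensing neurons. The zinc finger factor CHE-1 gives both of them their shared identity. A regulatory loop then makes them different: in the left neuron (ASEL) the microRNA lsy-6 represses cog-1, and in the right neuron (ASER) cog-1 stays on. TBX-37 and its paralog TBX-38 act early, in the embryonic lineage that gives rise to ASEL, and are known to leave the lsy-6 locus primed for later activation.

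The repression at the centre of the loop rests on a short sequence match, shown because it ties the microRNA to the gene it represses. The RefSeq annotation of WBcel235 lists 2 arms of the lsy-6 hairpin, at chrV:10647237-10647257 and chrV:10647280-10647301 on the plus strand, and does not say which is active. The second is printed with its seed (bases 2 to 8) in capitals. It was taken as the active arm from general knowledge and from its match to cog-1, so that match is a description and not a finding. The cog-1 3' untranslated region (chrII:14907140-14907533, plus strand) holds the complement of that seed at 2 places, in capitals in the sequences from chrII:14907397-14907423 and chrII:14907439-14907465.
lsy-6: uUUUGUAUgagacgcauuucga
cog-1 first site: ccaaatcatcgtcacttATACAAAaac
cog-1 second site: cgttaaaccatgcccaaATACAAAaaa

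The word ATACAAA, read on the transcribed strand only, was present at least once in the first 394 bases of 4.69% of 1984 annotated 3' untranslated regions of at least that length. It was present at least 2 times in 1 of them, which is cog-1 itself.

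Of the 9 genes, lim-6 was the single gene with a peak in its body or within 5000 bp of it in the conservative list. That is the authors' name for a series-wide list of 1107 peaks filtered by irreproducible discovery rate (IDR). The IDR is low for peaks that rank both high and alike in repeated data. The single gene lim-6 is 11.1% of the 9 (exact 95% binomial interval 0.281 to 48.2). By the same window 14.8% of all protein-coding genes and 21.1% of all microRNA genes had a peak. The share of these genes with a peak was therefore near that of genes in general. In the list made from replicate 2 alone lim-6 was again the single gene with a peak, against 11.4% of protein-coding genes. In the list made from replicate 1 alone 0 of the 9 had one, for which the exact interval reaches 33.6%, against 7.62% of protein-coding genes. With the threshold relaxed to an IDR of 0.05, 2 of 9 genes had a candidate, lim-6 and cog-1, against 21.7% of protein-coding genes. In a second series-wide list of candidates the same cog-1 region had an IDR of 0.0927 and would not pass. The distance from the gene body to the nearest conservative peak ran from 11046 bp at che-1 to 168828 bp at fozi-1 for the other 8 genes.

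**Figure D1:**
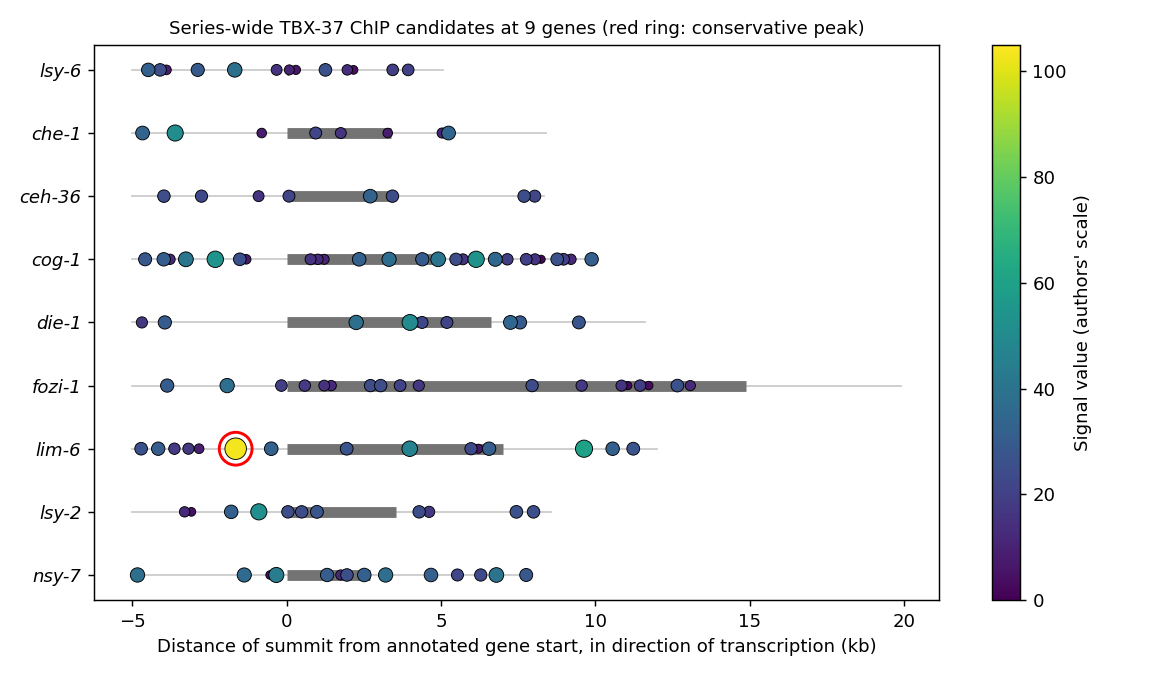
Position of every candidate of the series-wide ranked list (points, coloured and sized by signal value) along each gene, with distance from the annotated gene start in kb, the gene body as a thick grey bar and the searched window as a thin line. The ringed point, 1656 bp upstream of lim-6, is the single conservative peak, and no other point exceeds a signal value of 60.3.

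Below the threshold, the ranked lists hold all candidates that entered the comparison, 66355 in the series-wide list, 39578 for replicate 1 and 44219 for replicate 2. A signal value is the authors' peak caller's own number, with a scale that differs between lists, so positions in a list are given as ranks by signal value. The 9 windows held 122 series-wide candidates, or 8.93 per 10 kb against 6.62 per 10 kb of genome. Neighbouring candidates can overlap, so these are not independent regions. Of the 122, 8 (6.56%) ranked in the top 10% of the list and 2 (1.64%) had an IDR up to 0.05, against 3.04% of all candidates. A candidate in each replicate overlapped 32 of them (26.2%), against 27.3% of all candidates, and 29 (23.8%) had an overlapping candidate in neither replicate, against 27.2% of all.

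The microRNA gene lsy-6 (chrV:10647232-10647304, plus strand) had 13 series-wide candidates in its window and none near the threshold. The strongest lay 1686 bp upstream of the hairpin at chrV:10645418-10645673, in a coding exon of C32C4.3, with a signal value of 38.5, rank 12365 and an IDR of 0.744. The same region ranked 5212 in replicate 1 and 33164 in replicate 2. It was thus in the upper part of the list in replicate 1 and in the lower part in replicate 2. The strongest candidates of the replicates themselves were different regions, a kvs-2 coding exon 2892 bp upstream in replicate 1 (signal value 22.7, rank 4674) and a ugt-35 coding exon 5151 bp downstream of the lsy-6 start in replicate 2 (23.4, rank 16222).

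A candidate at chrV:10647187-10647442 covered the lsy-6 hairpin itself, and its plus strand is printed because the sequence beside the hairpin holds the consensus word of T-box proteins, AGGTGTGA, in capitals.
lsy-6 hairpin candidate: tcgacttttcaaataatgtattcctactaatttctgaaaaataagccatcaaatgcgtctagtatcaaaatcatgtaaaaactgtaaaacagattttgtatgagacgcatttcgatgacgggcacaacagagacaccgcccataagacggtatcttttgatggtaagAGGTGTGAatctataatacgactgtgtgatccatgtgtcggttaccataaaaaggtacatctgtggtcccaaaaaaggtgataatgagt

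This candidate was among the weakest in the series-wide list, with a signal value of 10.6, rank 59957 of 66355 and an IDR of 0.900. An overlapping candidate in replicate 1 had a signal value of 11.7 and rank 31528, and replicate 2 had no overlapping candidate. The consensus was centred 126 bp past the start of the hairpin and 43 bp from the candidate's summit. It was the single copy in the 10073 bp window around lsy-6 (both strands), and 18.9% of genome tiles of that length hold at least 1. Of protein-coding promoters (the 1000 bp ahead of each start and the first 200 bp after it) 2.48% hold the word. By the same rule lsy-6 was the single one of the 9 genes that held it. The annotated lsy-6 gene is the hairpin of 73 bp, so the 200 bp after its start run past its end. This copy lies there, at chrV:10647354-10647361, and not ahead of the hairpin, so the share of protein-coding promoters is not a like comparison. The shorter core GGTGTG, which is part of the consensus, occurred 3 times in the lsy-6 window. A match shows these letters and is not evidence of a bound site.

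**Figure D2:**
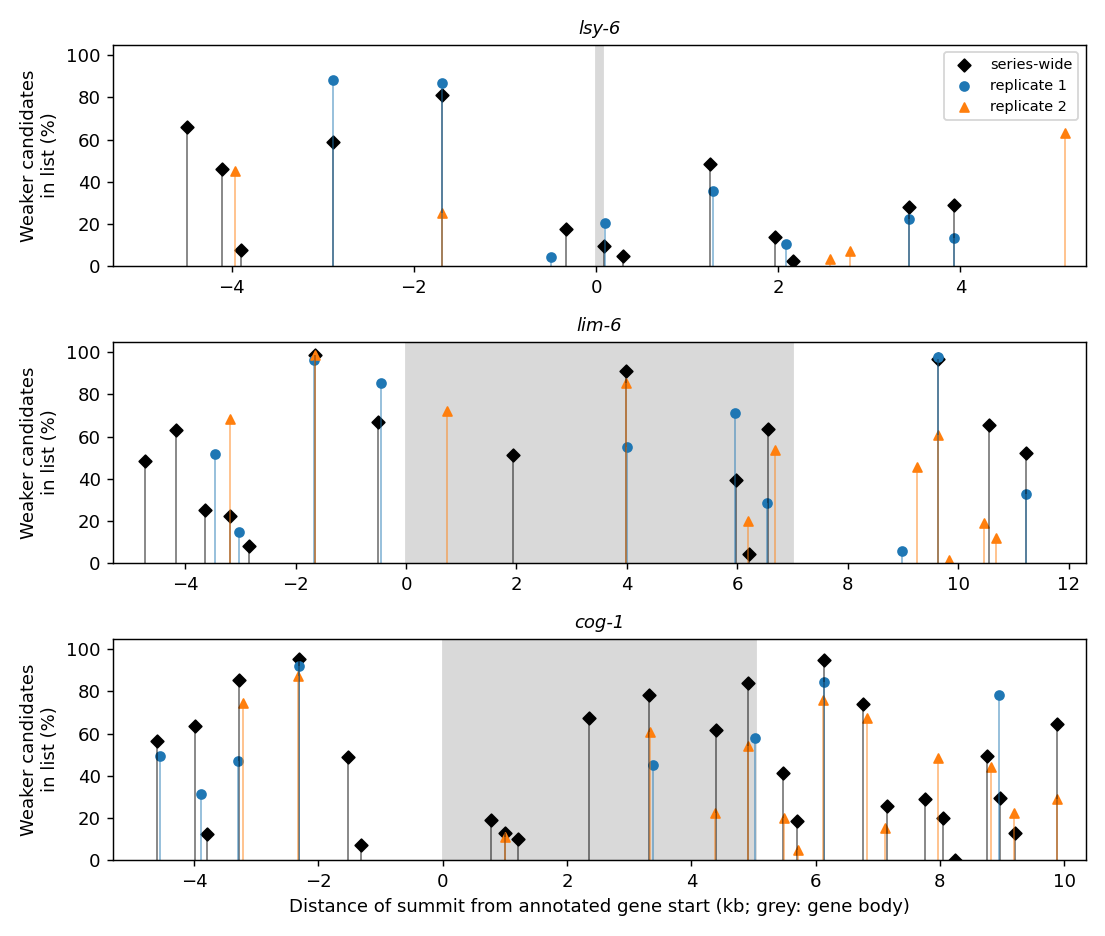
Candidates at lsy-6, lim-6 and cog-1, with distance of the summit from the gene start in kb on the horizontal axis and, on the vertical axis, the percent of candidates of the same list that are weaker, for the series-wide list and each replicate. At lsy-6 the candidates at the hairpin sit low, while at lim-6 the summit 1656 bp upstream is near the top for the series-wide list (rank 725), replicate 1 (1386) and replicate 2 (607).

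Among the factors that act ahead of or on lsy-6, che-1 (chrI:6517529-6520918, minus strand) encodes the zinc finger factor that sets the identity of both ASE neurons and is later needed to keep lsy-6 on. Its strongest series-wide candidate lay 3616 bp upstream at chrI:6524406-6524661, with a signal value of 51.5, rank 3836 and an IDR of 0.113. This position is 511 bp upstream of the neighbouring gene T10E9.4, whose start is the nearest. The strongest candidate of replicate 1 (signal value 20.7, rank 7043) and that of replicate 2 (31.5, rank 5252) were at this same position, with summits 20 bp apart. Only che-1 and cog-1 of the 9 genes had the same strongest region in both replicates, or 22.2%, against 27.2% of the 18038 protein-coding genes with a candidate in each.

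The gene ceh-36 (chrX:14183221-14186566, minus strand), an Otx-type homeobox gene of ASE and of the odour-sensing AWC neurons, had the weakest best candidate of the 9. It lay in a ceh-36 intron at chrX:14183733-14183988, with a signal value of 33.0, rank 20419 and an IDR of 0.543. That region ranked 20129 in replicate 1 (signal value 15.1) and 22698 in replicate 2 (20.5). Both ranks were near the middle of their lists. Each replicate had a stronger ceh-36 candidate elsewhere, in the promoter 135 bp past the start in replicate 1 (18.2, rank 11413) and in a coding exon 1036 bp past it in replicate 2 (24.2, rank 14716). The other series-wide ranked list (41925 candidates) had 0 candidates in the ceh-36 window.

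The zinc finger gene lsy-2 (chrX:2089704-2093256, plus strand), which is needed for lsy-6 expression, had its strongest candidate in its own promoter, 906 bp upstream at chrX:2088670-2088925. The series-wide signal value was 51.9, with rank 3701 and an IDR of 0.791. In replicate 1 the region had a signal value of 32.6 and rank 1168, and in replicate 2 a signal value of 16.1 and rank 32826. The replicates thus placed this promoter in the uppermost and in the lower part of their lists, the widest such gap among the best regions of the 8 genes whose best region had a partner in each replicate. The strongest lsy-2 candidate of replicate 2 was 2117 bp upstream (25.9, rank 11640).

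The zinc finger gene die-1 (chrII:10061302-10067917, minus strand) acts in ASEL, where it activates lsy-6. Its strongest series-wide candidate was in a die-1 intron at chrII:10063796-10064051, 3993 bp past the gene start, with a signal value of 49.8, rank 4393 and an IDR of 0.188. The same intron region ranked 4767 in replicate 1 (signal value 22.6) and 12732 in replicate 2 (25.2). In replicate 2 another intronic region of die-1, 2239 bp past the start, was stronger (35.5, rank 3178), with a small nucleolar RNA gene 153 bp from its summit. In replicate 1 the strongest was 7205 bp past the start (24.7, rank 3253), 52 bp upstream of the neighbouring gene stg-1.

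The homeobox gene cog-1 (chrII:14902493-14907533, plus strand), which promotes the ASER fate and is the target of lsy-6, had the most candidates, 26 in its window or 17.3 per 10 kb. The strongest lay in intergenic sequence 2316 bp upstream at chrII:14900049-14900304, with a signal value of 53.7, rank 3209 and an IDR of 0.0440, short of the authors' threshold near 0.01. It was also the strongest cog-1 candidate of replicate 1 (rank 3057) and of replicate 2 (signal value 31.1, rank 5525), with summits 18 bp apart. In the lists of the single replicates its IDR was 0.681 in replicate 1 and 0.551 in replicate 2, and in the other series-wide ranked list 0.0927. The second candidate, at chrII:14908501-14908756 in an intron of the neighbouring gene R03C1.1, had nearly the same signal value, 53.0 (rank 3388, IDR 0.169). A weaker candidate at chrII:14907270-14907525, the fourth of the gene, covered both lsy-6 sites in the 3' untranslated region. Its signal value was 40.3 (rank 10604, IDR 0.470), and overlapping candidates ranked 16582 in replicate 1 (signal value 16.2) and 20289 in replicate 2 (21.5).

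The gene fozi-1 (chrIII:9281780-9296675, plus strand) encodes a zinc finger protein that acts in ASER. Its strongest series-wide candidate was 1932 bp upstream at chrIII:9279720-9279975, with a signal value of 37.5, rank 13689 and an IDR of 0.501. It was the strongest of the gene in replicate 1 as well (signal value 18.2, rank 11545), and replicate 2 had no overlapping candidate there. The strongest fozi-1 candidate of replicate 2 was another region, 4995 bp upstream, with a signal value of 30.7 and rank 5880, the fifth of the 9 genes in that list. The fozi-1 window, 24896 bp, was the longest of the 9.

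The LIM homeobox gene lim-6 (chrX:1072452-1079452, plus strand), which acts in ASEL, held the conservative peak, at chrX:1070668-1070923 in intergenic sequence. Its signal value was 103, rank 563 of 1107 in the conservative list and 725 of 66355 in the ranked list, and its IDR was 0.00155. In replicate 2 the region had a signal value of 73.6, rank 607 and an IDR of 0.000618. In replicate 1 it had a signal value of 30.8 and rank 1386, but an IDR of 0.917. The peak thus ranked high in both replicates and passed the threshold in the own list of replicate 2 and not in that of replicate 1. Its summit lay 1656 bp upstream of the lim-6 start in Ensembl and 3112 bp upstream of the start in RefSeq, which places that start 1456 bp further downstream. The start of mksr-1, on the other side, was 1667 bp from the summit, so in Ensembl the peak lay about midway between the starts of both genes and by the RefSeq start it was nearer to mksr-1. Next above it by signal value in the conservative list was a peak 184 bp upstream of dagl-2 (103), and next below one 293 bp upstream of F36A2.7 (103), both at promoters.

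The lim-6 peak is printed whole on the minus strand, because it holds words that also occur in transfer RNA (tRNA) genes. RNA polymerase III finds tRNA genes by internal promoter elements called the A box and the B box. The capitals mark the words GGCNNAGTG, an A box core, and GGTTCNA, a B box core.
lim-6 peak: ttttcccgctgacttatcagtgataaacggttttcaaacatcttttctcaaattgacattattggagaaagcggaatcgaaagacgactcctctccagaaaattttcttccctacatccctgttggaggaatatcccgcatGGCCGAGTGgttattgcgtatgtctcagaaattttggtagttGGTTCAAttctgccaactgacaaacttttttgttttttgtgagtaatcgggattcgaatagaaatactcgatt

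The A box word began 14 bp from the summit, 33 bp separated the words, and a run of 6 T followed 18 bp after the B box word. Neither annotation places a tRNA gene there, and the nearest annotated small structural RNA gene was a tRNA gene 18377 bp from the summit. A stretch of 86 bases around both words (chrX:1070704-1070789) aligned best with a tRNA gene at chrIII:11792782-11792853 among 612 annotated ones, with 43 identical bases in 64 aligned columns (67.2%). The words were chosen from this sequence after it was seen, so its own match is no finding. The stretch was cut around these words and no other sequence was aligned. Its best alignment therefore has no background and is a description only. Both words on the same strand, 25 to 65 bp apart, were present in 20 of 875 conservative peaks with a summit over 100 bp from any annotated tRNA gene (2.29%, lim-6 included). They were present in 0.282% of 65945 series-wide candidates that far from a tRNA gene, in 0.129% of genome tiles of the peak's length and in 5.23% of annotated tRNA genes. Of the 232 conservative peaks with a summit within 100 bp of a tRNA gene, 3.45% held both. Most annotated tRNA genes lack this pair: 9.97% held the A box word and 86.6% the B box word. The part of this sequence in the lim-6 peak was not tested.

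Beside this peak, lim-6 had a candidate 9632 bp past its start at chrX:1081956-1082211, upstream of the neighbouring gene pfn-3. Its series-wide signal value was 60.3 (rank 2038, IDR 0.496). It ranked 984 in replicate 1, where it was the strongest lim-6 candidate (signal value 34.9), and 17294 in replicate 2 (22.9). A candidate in a lim-6 intron, at chrX:1076308-1076563, had a signal value of 46.6 and rank 5813.

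The gene nsy-7 (chrIV:8083960-8086652, minus strand) encodes a homeodomain-like factor known for the left and right asymmetry of the AWC neurons. Its strongest series-wide candidate was in its promoter, 339 bp upstream at chrIV:8086863-8087118, with a signal value of 43.5, rank 7758 and an IDR of 0.446. The promoter region ranked 9119 in replicate 1 (signal value 19.4) and 23244 in replicate 2 (20.2). Neither replicate had its strongest nsy-7 candidate there: that of replicate 1 was 6777 bp past the start in an intron of sax-7 (28.9, rank 1697), and that of replicate 2 was 4826 bp upstream (28.7, rank 7821).

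**Figure D3:**
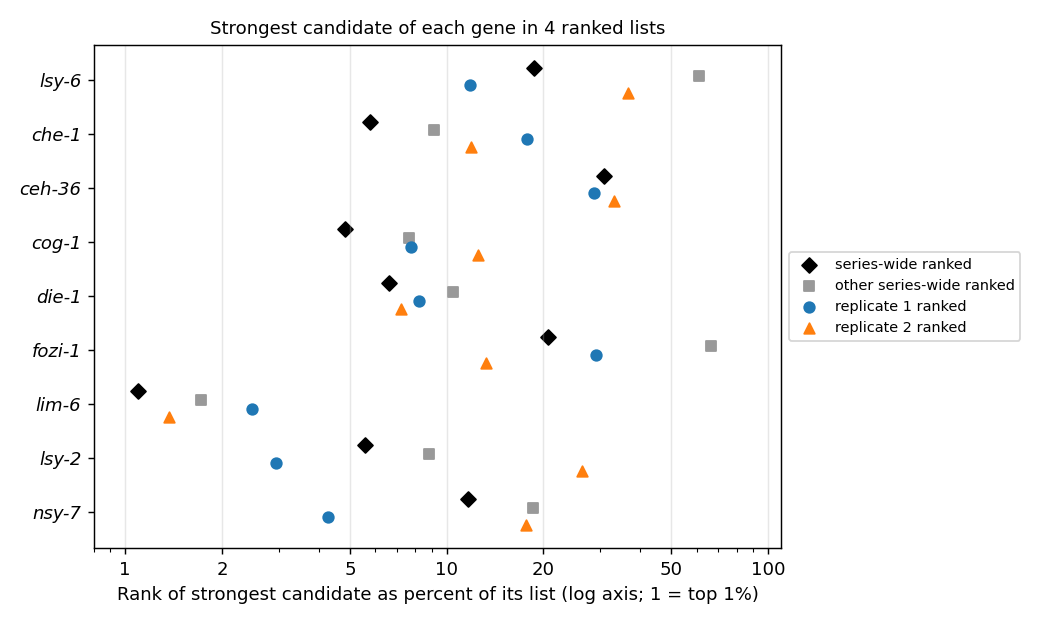
Rank of the strongest candidate of each gene as a percent of its list, on a log axis, in the series-wide list, the other series-wide list and each replicate's list. The lim-6 points lie furthest to the left in every list, from 1.09% to 2.49%, and lsy-2 is spread from 2.95% in replicate 1 to 26.3% in replicate 2.

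Ordered by series-wide signal value, lim-6 (103) was followed at a distance by cog-1 (53.7), lsy-2 (51.9), che-1 (51.5) and die-1 (49.8), then nsy-7 (43.5), lsy-6 (38.5), fozi-1 (37.5) and ceh-36 (33.0). The first place of lim-6 was the same in replicate 1 (rank 984) and replicate 2 (rank 607), although at different regions. The places behind it were not: lsy-2 came second in replicate 1 and seventh in replicate 2, and lsy-6 sixth in replicate 1 and last in replicate 2. The order of cog-1, lsy-2, che-1 and die-1 also differed between the replicates, so their close series-wide levels cannot be ranked.

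Set against all 19973 protein-coding genes, counting a gene without a candidate as weaker, lim-6 exceeded 90.9% of genes by its strongest candidate and cog-1 68.2%. At the other end, lsy-6 exceeded 29.6%, fozi-1 26.8% and ceh-36 17.4%. The median best signal value was 49.8 for the 9 genes and 46.8 for all protein-coding genes with a candidate, and 5 of the 9 were above the median gene. Windows had a median length of 13553 bp for the 9 genes and 12027 bp for all protein-coding genes. With promoters of equal length instead, lsy-2 exceeded 91.0% of genes, nsy-7 85.0% and lim-6 68.4%. The other genes with a promoter candidate exceeded less than 50%, while cog-1 and die-1 had 0 series-wide candidates in their promoters. Genes without a promoter candidate again counted as weaker, so che-1, with a signal value of 8.42, still exceeded 38.7%. The share for lsy-2 was 96.4% in replicate 1 and 57.6% in replicate 2, and for nsy-7 84.0% and 66.7%. The lim-6 promoter reached 88.9% in replicate 1 and had 0 candidates in replicate 2. In replicate 1 ceh-36 reached 81.0% and lsy-6 58.8%, and both had 0 promoter candidates in replicate 2. In replicate 2 die-1 reached 80.4% and fozi-1 52.0%, and both had 0 in replicate 1. For die-1 the share was 68.5% in the other series-wide list. Promoters of che-1 and cog-1 had 0 candidates in either replicate.

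**Figure D4:**
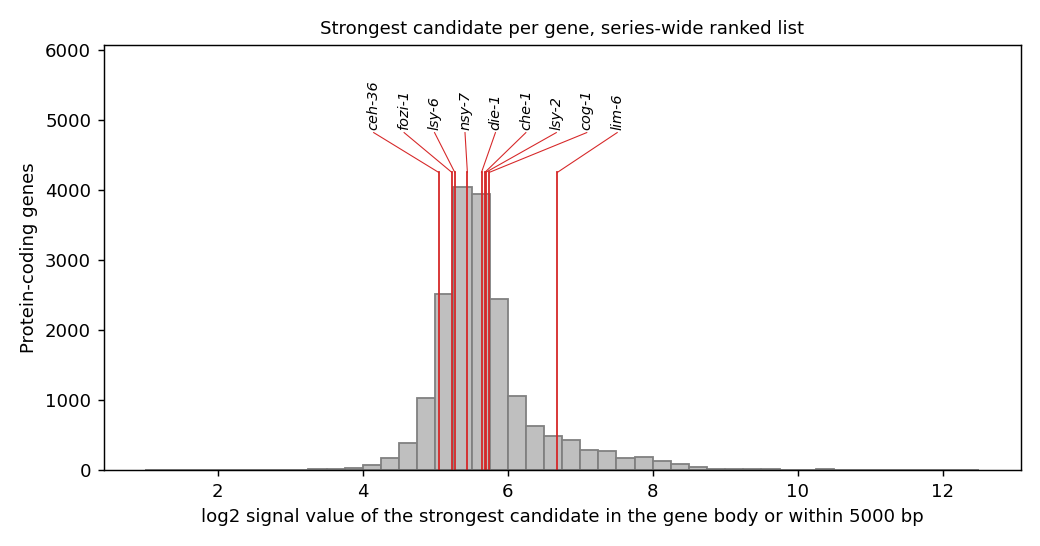
Number of protein-coding genes by the log2 signal value of their strongest series-wide candidate (grey bars), with the 9 genes as red lines. All but lim-6 lie in the bulk of the distribution, between signal values of 33.0 and 53.7.

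None of the 9 strongest series-wide candidates held AGGTGTGA or GGTGTG within 100 bp of its summit. Of the conservative peaks 0.361% held the first word and 7.14% the second, and of all series-wide candidates 0.526% and 6.04%, so 0 of 9 is near these shares. GAAGCC, a core of the sites bound by CHE-1, lay within 100 bp of the summit of the strongest candidate for che-1 and die-1. The shares were 4.52% of conservative peaks and 6.96% of all candidates. The related GAAACC lay that near at 0 of 9, against 8.94% of conservative peaks and 9.45% of all candidates. All words were searched on both strands.

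Lists of related genes gave a wider view. Among 14 upstream regulators and cofactors of ASE fate, 5 had a conservative peak in the same window (35.7%, against 14.8% of protein-coding genes). No interval is given for this share of few genes. The gene lists were chosen with earlier results of these data known. The lengths of these genes' windows were also not set against those of all genes, so the difference is a description only. The Groucho-type corepressor gene unc-37 had a peak 337 bp upstream of its start (signal value 63.5, chrI:6745538-6745793), and lsy-13, of a histone acetyltransferase complex, had one 199 bp upstream (86.5), which was 190 bp upstream of mel-46. The lsy-22 peak (113) lay in an intron of that gene. The remaining peaks lay outside the listed gene: that of the beta-catenin gene sys-1 (190) was 248 bp upstream of eif-3.C, and that of the Notch receptor gene glp-1 (166) was in an intron of dos-1 at a tRNA gene.

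Among 17 genes that ASE neurons express, such as receptor guanylyl cyclases and neuropeptide genes, 1 had a conservative peak (5.88%). It was gcy-4 (113), with a summit 7669 bp past its start and 59 bp upstream of mdt-22. Among 14 genes of AWC asymmetry 2 had one (14.3%), the kinase gene nsy-1 (303) and the adaptor gene tir-1 (267). The nsy-1 peak was at a tRNA gene inside F33G12.3, and the strongest tir-1 peak was 289 bp upstream of the ribosomal protein gene rpl-3. The lsy-13 window held 2 conservative peaks and the tir-1 window 3, of which the strongest is described. Taking the strongest peak of each of these 8 genes, unc-37 was the single one whose own start was the protein-coding start nearest to it.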

How the data were processed

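Peak lists of 2 replicates of 1 group were used as deposited. The deposited text records give ce11 as the build and alignments as the source of the peaks. Aligner and peak caller: not given in the sources used here. A score column holds the authors' scaled IDR (maximum 1000), and the signal value is another score by the authors. IDR values were computed from a −log10 column that the authors deposited for candidates. The summit offset is the authors'. In each ranked list 8 further columns were not used. No read counts are given, so depth is unknown, and intervals cover counting error over genes only.

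Genes came from Ensembl release 115 (WBcel235, the assembly of ce11) and sequence from RefSeq's copy. RefSeq gives the same coordinates for 7 of the 9 genes, and 0 peaks lay beyond a chromosome end. A gene's window was its body and 5000 bp either side, and an overlap of 1 bp counted. No test was run. Named by rule were the 9 genes, listed genes with a conservative peak, and genes nearest the strongest series-wide candidates or next to lim-6 by signal value. Neighbours named elsewhere were chosen after their values were seen. The genes and lists were chosen with earlier results of these data known. Gene searches were checked on 200 planted peaks, all found (Python 3.11.15, pandas 2.3.3).

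Alternatives were the other lists, each replicate alone, the highest score, windows of 2000 and 10000 bp, promoters, summits, order by IDR, an overlap of 50%, summits within 100 bp and word windows of 50 and 200 bp. An IDR of 0.05, RefSeq coordinates and all alternatives for the gene lists were added after seeing the data.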

Additional observations from a re-analysis of the deposited data

How the results depend on the processing

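The count of genes with a peak was 1 under the other series-wide list, the highest score, windows of 2000 and 10000 bp, summits in place of peaks and RefSeq coordinates. It was 0 for promoters alone, since the lim-6 peak lies beyond them, 2 with an IDR up to 0.05, and 0 to 1 with either replicate left out. The median rank of the strongest candidates, 6.62% of the list, was 20.6% when candidates were chosen by IDR, 11.7% with 2000 bp, 65.4% for promoters (7 genes), and 8.22% to 13.3% with a replicate left out. A window of 10000 bp brought in stronger candidates for ceh-36 (2.94%), cog-1 (2.41%), nsy-7 (4.46%) and lsy-6 (10.9%). GGTGTG was at 1 strongest candidate, that of cog-1, within 200 bp. The 2 genes with a shared strongest region in the replicates stayed at 2 under both stricter overlaps.

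Among the gene lists, upstream regulators with a peak numbered 8 with an IDR up to 0.05, 2 for promoters and 2 to 6 with a replicate left out, against 5. ASE-expressed genes numbered 2 in the other list, 2 with an IDR up to 0.05, 0 with 2000 bp, 5 with 10000 bp, 0 for promoters and 0 to 1 with a replicate left out, against 1. AWC genes numbered 4 with an IDR up to 0.05, 1 with 2000 bp and 0 for promoters, against 2. The share of all protein-coding genes moved as well, from 14.8% to 21.7% with an IDR up to 0.05. It was 7.62% in the list of replicate 1 and 11.4% in that of replicate 2. For the other list, other windows and promoters the share of all genes is not given here, so those counts stand without a background. The cause of these shifts was not tested beyond the narrower or wider windows. No paired analysis was possible because there is 1 group. The lists have no depth, so a missing peak is a peak not detected here.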

Other observations

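The repeat GAGAGA and the GC box GGGCGG, which earlier results of these data showed at many conservative peaks, were searched at the strongest candidates of the 9 genes. GAGAGA lay within 100 bp of 0 of 9 summits, against 25.7% of conservative peaks and 12.8% of all series-wide candidates. Within 200 bp it lay at 1 of 9, that of die-1, against 34.8% of conservative peaks. GGGCGG lay within 100 bp of 0 of 9, against 12.1% of conservative peaks and 5.13% of all candidates. In promoters GAGAGA was present at 6 of the 9 genes, against 50.9% of protein-coding promoters, and GGGCGG at 2 of 9, lsy-6 and lim-6, against 19.2%. At lsy-6 a copy of GGGCGG lay past the end of the 73 bp hairpin, within the 200 bp after its start.

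AGGTGTGA occurred in the windows of 5 of the 9 genes. Of genome tiles as long as each window, 18.9% (the lsy-6 length) to 39.2% (the fozi-1 length) held it at least 1 time. Beside the copy at lsy-6, fozi-1 had 2, as many as 11.0% of tiles of its window's length held, and ceh-36, die-1 and lim-6 had 1 each. A candidate of the series-wide list covered the lsy-6 copy and 1 of the fozi-1 copies, and the others lay in no candidate.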
